A study of Homo sapiens with 18 samples.

Results

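GIST-T1 cells kept for 24 h in the bromodomain inhibitor JQ1 had a lower level of most messenger RNAs than cells given DMSO, while a short set of genes led by replication-dependent histone genes was higher. The comparison used 6 of the 18 libraries of the series, 3 labelled JQ1 24 h and 3 labelled DMSO, chosen by the treatment in the labels. All 23621 gene rows of the deposited table were read, and 12771 of them, those reaching 1 FPKM in 3 or more libraries, were tested. FPKM counts sequenced fragments per length of transcript and per size of the library, and the file's label calls the values normalized. Per the labels' protocols, GIST-T1, a human gastrointestinal stromal tumour line that depends on the receptor KIT, was treated at 500 nM, RNA input was set by cell number, and ERCC spike-in transcripts were added before poly(A) libraries were made. The JQ1 24 h group was set against DMSO, and also against JQ1 for 6 h and against imatinib, an inhibitor of the KIT kinase, for 24 h, with 3 libraries in each group. The 2 remaining groups, 6 h of imatinib and the combination of imatinib and JQ1 at 24 h, were not compared. They entered the choice of tested genes, the estimate of the spread between libraries, the rescalings and the grouping of genes by level. All groups are the same line, no time is given for DMSO, and the labels do not say whether libraries of a group came from separate cultures, so p-values measure the spread between these libraries, which may be technical.

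BET proteins bind acetylated histones through their bromodomains and help to bring the kinase P-TEFb to promoters and enhancers, where it releases paused RNA polymerase II into elongation. JQ1 occupies the acetyl-lysine pocket of these bromodomains. Gastrointestinal stromal tumours arise in the lineage of the interstitial cells of Cajal, most carry an activated KIT receptor, and the transcription factors ETV1, HAND1 and FOXF1 are known as factors of this lineage.

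The cells carried the markers of the tumour in both groups. Each of 7 GIST markers had at least 1 FPKM in both groups, with a summed level of 267 to 351 FPKM in the JQ1 24 h libraries and 1419 to 2139 FPKM in the DMSO libraries. Of 18 leukocyte markers, 12 were at the floor of the table, here a mean under 0.2 FPKM, in both groups, among them PTPRC, and of 12 endothelial markers 8 were, among them PECAM1 and VWF. Of 17 epithelial markers 9 and of 10 glial markers 7 were at the floor, GFAP and SOX10 included. KRT18, a keratin of simple epithelia, and ENG, a TGF-beta co-receptor best known from endothelium, were nevertheless abundant, with 51.02 ± 7.43 FPKM in JQ1 24 h and 538 ± 123 FPKM in DMSO for KRT18 and 73.2 ± 14.2 FPKM in JQ1 24 h and 749.6 ± 192 FPKM in DMSO for ENG (SD, n = 3 each). Pairs of libraries within the JQ1 24 h group had Pearson r of 0.985 to 0.989 across genes, and within DMSO 0.979 to 0.980.

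Most genes fell. Of the 12771 tested genes, 51 rose and 9621 fell, a call being a Benjamini-Hochberg adjusted p under 0.05 from limma together with a log2 change of at least 1 in size; these are 0.399% and 75.3% of the tested genes, the background against which each gene group below is read. A log2 change is the difference of mean log2(FPKM + 1), JQ1 24 h minus DMSO, and its median over all tested genes was -1.49. Summed over all genes, the values came to 627205 ± 55556 FPKM in JQ1 24 h and 2208396 ± 331875 FPKM in DMSO (SD, n = 3 each), a 3.52-fold lower sum after JQ1, with an exact two-sided permutation p of 0.1, the smallest that 3 against 3 libraries allow. RNA input was set by cell number per the labels' protocols; within a bulk sample, fewer cells of a type and less RNA per cell cannot be told apart. The values of the 2 groups did not overlap for 93.8% of the tested genes.

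**Figure D1:**
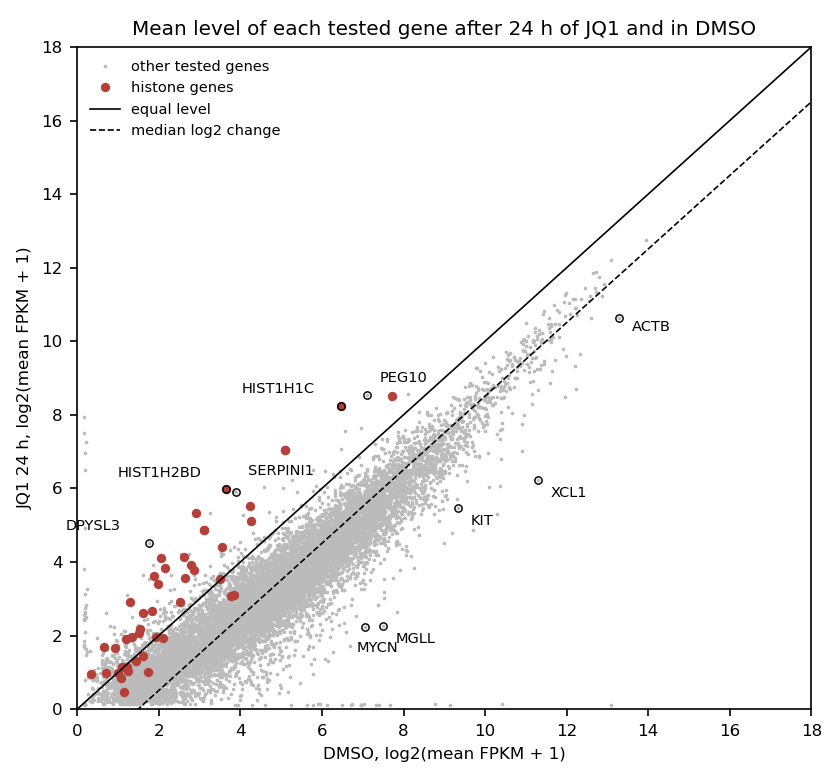
Mean level of each tested gene, with JQ1 24 h on the vertical axis and DMSO on the horizontal axis, both as log2(mean FPKM + 1); red points are histone genes and open circles are labelled genes. The cloud lies below the line of equal level, along the dashed line at the median log2 change of -1.49, and histone genes lie on or above the line of equal level more often than the cloud does.

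Abundant genes fell more often than scarce ones. Of the 2555 genes of lowest mean log2(FPKM + 1) over the 18 libraries, with a median of 2.39 FPKM in DMSO, 44.5% fell, and in the 4 groups of 2554 genes above them 74.5%, 83%, 87% and 87.6% fell. Low genes lie near the pseudocount of 1, which shrinks their log2 change. Which genes count as lower also depends on the scale. When each library was divided instead by the median of its gene ratios (ratio rescaling), the median log2 change was -0.011, 670 genes rose and 826 fell, and when all libraries were set to the same summed FPKM (total rescaling) the median was 0.074, 906 rose and 724 fell. Those are 5.25% and 6.47% of the tested genes under ratio rescaling and 7.09% and 5.67% under total rescaling. A gene whose log2 change lies between -1.49 and 0 on the deposited scale is thus lower in FPKM and higher relative to the other genes, and both scales are given wherever a printed log2 change against DMSO has a different sign on them.

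Replication-dependent histone genes supplied 17 of the 51 rising genes. These genes encode the core and linker histones that package new DNA, and most of their mRNAs end in a stem-loop and carry no poly(A) tail, so poly(A) libraries normally hold few of them. The table holds 72 such genes, of which 45 were tested, 17 rose, 0 fell and 28 had no call, with a median log2 change of 0.81 beside -1.49 over all tested genes. After ratio rescaling 33 of the 45 rose, and after total rescaling 34. Without DMSO replicate 1, 1 histone gene fell. By class, 7 of 13 H2A genes, 4 of 14 H2B genes, 3 of 8 H4 genes, 2 of 8 H3 genes and 1 of 2 H1 genes rose, and the class medians ran from 0.47 for H4 to 1.06 for H2A.

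HIST1H2AC, an H2A gene of the large cluster on chromosome 6, had 35.6, 37.7 and 44.5 FPKM in the JQ1 24 h libraries, against 5.58, 7.74 and 6.40 FPKM in the DMSO libraries. All JQ1 libraries lay above all DMSO libraries, with a log2 change of 2.41 ± 0.21 (SE; adjusted p = 3.1e-10). HIST1H2BD, an H2B gene of the same cluster, had 53.2, 65.7 and 67.9 FPKM after 24 h of JQ1, against 9.27, 12.1 and 13.1 FPKM in DMSO, a log2 change of 2.35 ± 0.18 (adjusted p = 7.6e-11). HIST1H1C, which encodes a linker histone, was the most abundant histone gene that rose, with 272, 308 and 332 FPKM after 24 h of JQ1, against 70.02, 89.98 and 104 FPKM in DMSO and a log2 change of 1.79 ± 0.19 (adjusted p = 8.5e-09). The groups did not overlap in these 3 genes, nor in 93.8% of all tested genes. For genes named by largest change, such as HIST1H2AC and HIST1H2BD, this was a condition of the choice. HIST2H2AA3 and HIST2H2AA4 differed by at most 0.154% in any of the 6 libraries and averaged 132 ± 19.2 FPKM in JQ1 24 h and 32.99 ± 5.88 FPKM in DMSO, with a log2 change of 1.97 ± 0.20; they are near-identical copies on chromosome 1 whose reads cannot be assigned to one of them, so each pair is 1 measurement counted as 2 genes, and the same holds for HIST2H4A and HIST2H4B, at 1.85 ± 0.26. HIST1H2AE rose by 2.04 on the log2 scale. The lowest log2 change of a tested histone gene was -0.74, with 0.78 and 0.89 after the 2 rescalings, for the H4 gene HIST1H4J, which was named after its value was seen.

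**Figure D2:**
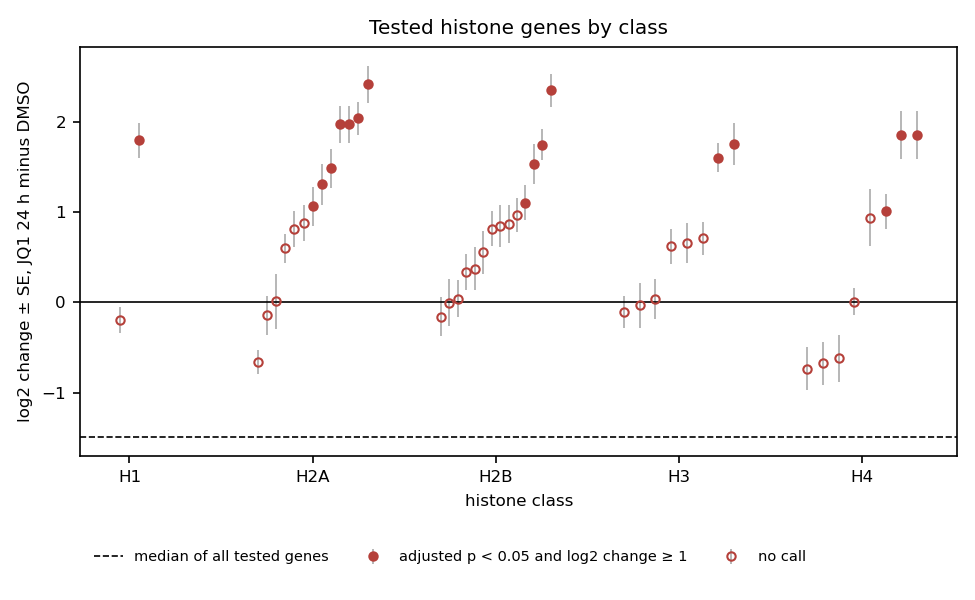
Log2 change with its standard error, JQ1 24 h minus DMSO, of each of the 45 tested histone genes, ordered by size within their class; filled points passed both the adjusted p of 0.05 and a log2 change of 1. All 45 genes lie above the dashed line, the median of all tested genes at -1.49, and 17 are filled, 7 of them H2A genes.

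The promoters of 4 of the risen genes are shown as the 250 bases before the transcription start, because HIST1H2AC and HIST1H2BD had the largest log2 changes of the histone genes, and HIST1H2AE and HIST2H2AC each share their window with a neighbour on the opposite strand that also rose. Sequences are from RefSeq on GRCh38.p14, written 5′ to 3′ on the gene's strand, with matches to CCAAT (the CCAAT box), TATAAA (the TATA box) or ATTTGCAT (the octamer known from H2B promoters), on either strand, in capitals.
HIST1H2AC, chr6:26123922-26124171, plus strand: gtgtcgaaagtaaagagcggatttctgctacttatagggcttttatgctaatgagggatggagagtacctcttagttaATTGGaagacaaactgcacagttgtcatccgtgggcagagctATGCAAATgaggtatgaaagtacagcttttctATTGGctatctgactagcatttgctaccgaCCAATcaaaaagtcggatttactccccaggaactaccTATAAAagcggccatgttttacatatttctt
HIST1H2BD, chr6:26157871-26158120, plus strand: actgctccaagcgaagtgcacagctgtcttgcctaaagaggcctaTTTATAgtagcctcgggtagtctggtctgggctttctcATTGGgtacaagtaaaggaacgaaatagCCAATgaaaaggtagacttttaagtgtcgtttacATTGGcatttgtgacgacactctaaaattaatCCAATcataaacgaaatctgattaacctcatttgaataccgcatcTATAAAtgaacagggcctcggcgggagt
HIST1H2AE, chr6:26216671-26216920, plus strand: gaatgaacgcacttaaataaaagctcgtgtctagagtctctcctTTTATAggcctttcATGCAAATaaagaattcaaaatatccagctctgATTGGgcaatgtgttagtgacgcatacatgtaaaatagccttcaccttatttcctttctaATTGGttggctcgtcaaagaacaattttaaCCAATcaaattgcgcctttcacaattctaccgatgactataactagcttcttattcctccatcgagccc
HIST2H2AC, chr1:149886668-149886917, plus strand: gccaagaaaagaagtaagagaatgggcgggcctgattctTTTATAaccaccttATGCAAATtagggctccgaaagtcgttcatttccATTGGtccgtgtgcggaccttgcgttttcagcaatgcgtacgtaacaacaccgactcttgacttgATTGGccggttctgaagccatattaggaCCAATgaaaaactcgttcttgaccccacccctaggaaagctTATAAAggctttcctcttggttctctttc

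RefSeq promoters matched 60 of the 72 histone genes, 37 of them tested. CCAAT stood in 50 of the 60 windows, against 32% of 34788 promoter windows of all genes, TATAAA in 39 of 60 against 10.8%, and ATTTGCAT in 26 of 60 against 1.62%. CCAAT was in 13 of the 15 matched genes that rose and in 18 of the 22 tested ones with no call, TATAAA in 10 of 15 and 14 of 22, and ATTTGCAT in 8 of 15 and 8 of 22. Genes with no call include some that were higher but under the fold threshold, such as HIST1H2BC at 0.86 on the log2 scale. After ratio rescaling 33 of the 45 tested histone genes rose. The counts therefore cannot show whether the letters separate changed from unchanged genes. ATTTGCAT lay in 25 of the 32 H2A and H2B windows and in 1 of the 28 windows of the other classes. That 1 window, of the risen H3 gene HIST1H3D, is the same stretch as the window of the H2A gene HIST1H2AD. Windows of paired genes on opposite strands also overlap, so a stretch can be counted more than once. A match is a run of letters and not a measured binding site.

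Of 12 pairs of histone genes that start on opposite strands within overlapping windows, both members were tested in 8. The pair of HIST1H2BF with HIST1H2AD and that of HIST1H2BF with HIST1H3D are the same stretch, and HIST1H2BF was not tested. Both rose in 2 pairs, HIST1H2AE with HIST1H2BG, whose windows overlap by 232 bases, and HIST2H2AC with HIST2H2BE, which overlap by 235 bases. In 4 pairs 1 member rose, and in 2 pairs neither did. HIST2H2AC had a log2 change of 1.30 ± 0.22 and its partner HIST2H2BE one of 1.75 ± 0.17, while HIST1H2BC, which shares 245 bases with HIST1H2AC, had 19.1, 18.4 and 23.3 FPKM after 24 h of JQ1, against 8.76, 10.8 and 12.6 FPKM in DMSO and a log2 change of 0.86 ± 0.21, under the fold threshold. Pair members outside the naming rule were named after their values were seen.

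Beside histones, 21 other named genes rose, and 13 rising rows were small RNAs, clones or similar names. The small RNA rows were noisy: 11 of 163 tested rose, their median standard error was 0.991 on the log2 scale against 0.175 for all tested genes, and in 9 of the rising small RNA rows the libraries of the 2 groups overlapped. Of the 51 rising rows, 39 had no overlap between groups, a lower share than the 93.8% of all tested genes without overlap.

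DPYSL3, which encodes a collapsin response mediator of growing axons, had the largest rise of the named genes against DMSO. It had 19.4, 22.03 and 24.5 FPKM in the JQ1 24 h libraries, against 2.31, 2.25 and 2.66 FPKM in the DMSO libraries. The groups were far apart, with a log2 change of 2.75 ± 0.17 (adjusted p = 2.7e-12). SERPINI1, a serine protease inhibitor known as neuroserpin and widely raised by BET inhibitors, had 54.7, 59.7 and 61.8 FPKM after 24 h of JQ1, against 9.74, 14.5 and 17.2 FPKM in DMSO, a log2 change of 2.04 ± 0.19 (adjusted p = 8.9e-10). KLHL24, an adaptor of a cullin ubiquitin ligase, had 54.7, 60.6 and 63.8 FPKM after 24 h of JQ1, against 11.6, 13.2 and 15.2 FPKM in DMSO, a log2 change of 2.09 ± 0.18 (adjusted p = 2.6e-10). The groups did not overlap in these genes, but a lack of overlap was a condition for naming the genes of largest change. It held for 93.8% of all tested genes.

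CDKN1C, the cyclin-dependent kinase inhibitor p57, was low in DMSO and had 7.58 ± 0.851 FPKM in JQ1 24 h and 1.32 ± 0.231 FPKM in DMSO, a log2 change of 1.89 ± 0.17. KLHL38, another Kelch-like gene, rose by 2.05 on the log2 scale and PCBP3, which encodes a poly(C)-binding protein, by 1.88. The most abundant rising gene was PEG10, a paternally expressed gene derived from a retrotransposon, with 345, 384 and 392 FPKM after 24 h of JQ1, against 111, 132 and 166 FPKM in DMSO and a log2 change of 1.46 ± 0.19 (adjusted p = 1.8e-07). HES6, a basic helix-loop-helix factor that promotes neuronal differentiation, rose by 1.49 on the log2 scale to a mean of 64.4 FPKM in JQ1 24 h, against 22.7 FPKM in DMSO. All of these rises were larger after either rescaling.

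**Figure D3:**
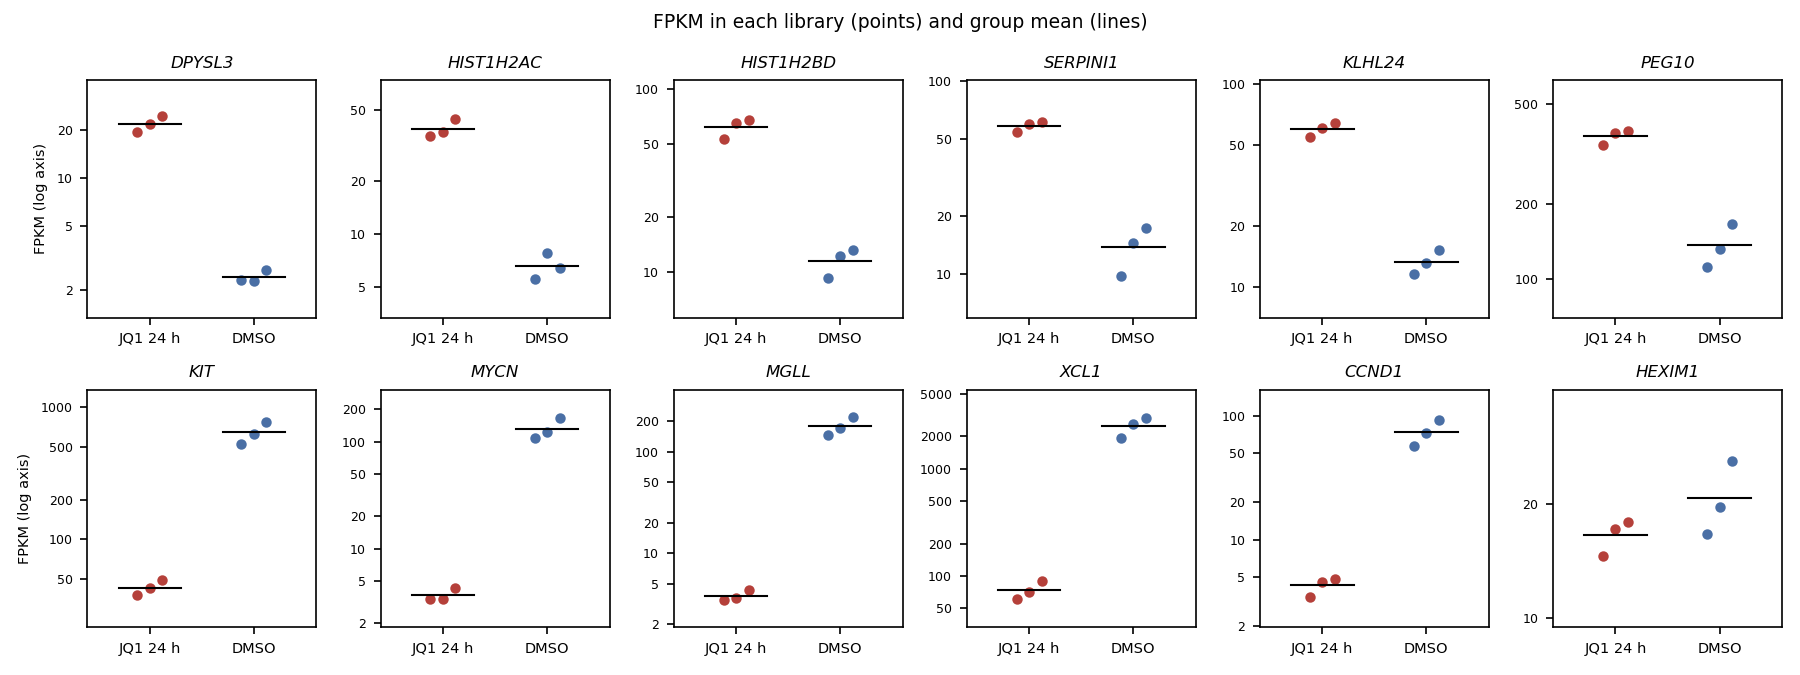
FPKM of 12 genes in each library on a log axis, JQ1 24 h left and DMSO right; points are libraries and lines are group means of 3. The groups are apart for the 6 genes in the upper row, which rose, and for KIT, MYCN, MGLL, XCL1 and CCND1, which fell; HEXIM1, with group means of 16.6 and 20.7 FPKM, is the one whose groups overlap.

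The deepest falls reached genes of several functions. MGLL, the monoglyceride lipase that degrades endocannabinoids, had 3.43, 3.58 and 4.35 FPKM in the JQ1 24 h libraries, against 147, 172 and 223 FPKM in the DMSO libraries, a 47.6-fold lower mean and a log2 change of -5.23 ± 0.16 (adjusted p = 8.1e-17). XCL1, a lymphotactin chemokine, was among the more abundant transcripts of DMSO cells, with 60.5, 70.9 and 90.2 FPKM after 24 h of JQ1, against 1933, 2598 and 2982 FPKM in DMSO, a log2 change of -5.06 ± 0.19 (adjusted p = 1.1e-15). XCL2 is a near-identical copy, so reads of the 2 genes may be split between them, and it fell by 4.98 on the log2 scale. Genes of largest change were named only if the groups did not overlap, and 93.8% of all tested genes had no overlap.

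IGFBP5, an insulin-like growth factor binding protein, had 2.29 ± 0.361 FPKM in JQ1 24 h and 102 ± 21.4 FPKM in DMSO, a log2 change of -4.95 ± 0.17. CHODL, a membrane lectin, fell by 4.82 on the log2 scale, to a mean of 28.01 FPKM in JQ1 24 h, against 826 FPKM in DMSO. PCDH12, a protocadherin, changed by -4.84 on the log2 scale, and MRVI1, a substrate of the cyclic GMP kinase in smooth muscle, by -4.71. CTSL1P8, a pseudogene related to cathepsin L, fell by 5.19 on the log2 scale, and CTSL1 fell by 2.90. Whether reads were shared between the 2 rows was not tested. STC2, a secreted glycoprotein induced by stress, had 0.522, 0.664 and 0.755 FPKM after 24 h of JQ1, against 34.2, 44.1 and 51.7 FPKM in DMSO, a log2 change of -4.73 ± 0.13. The non-coding RNA LINC00159 lay at the floor of the table in all 3 JQ1 24 h libraries, against 87.8, 73.7 and 105 FPKM in the DMSO libraries, so no fold is given. Each of the genes of these 2 paragraphs with a log2 change kept its call under both rescalings.

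Among the most abundant transcripts, the cytoskeletal gene ACTB had 1584 ± 236 FPKM in JQ1 24 h and 10055 ± 2313 FPKM in DMSO, a log2 change of -2.65 ± 0.21, and it was lower under both rescalings too (-0.94 and -0.84 by gene ratio and by total). TMSB4X, which encodes the actin monomer-binding thymosin beta 4, fell by 1.18 on the log2 scale in FPKM but was at 0.53 and 0.63 after the 2 rescalings. The ribosomal protein genes RPL41 and RPS12 changed by -1.35 and -1.03 on the log2 scale in FPKM, with 0.36 and 0.46 for RPL41 and 0.67 and 0.77 for RPS12 after rescaling. The imprinted RNA H19 changed by -1.60 on the log2 scale in FPKM, with 0.11 and 0.21 after rescaling, and the glycolytic enzyme gene GAPDH by -1.37, with 0.33 and 0.43 after rescaling. For those 5 genes the direction rests on the scale, and RPS12 was just short of the fold threshold, at -0.98, -0.93 and -0.98 on the log2 scale, without DMSO replicate 2, DMSO replicate 3 or the unnumbered JQ1 24 h library.

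KIT, the receptor tyrosine kinase on which the line depends, had 37.5, 42.4 and 49.3 FPKM in the JQ1 24 h libraries, against 529, 626 and 777 FPKM in the DMSO libraries. The JQ1 mean was 14.9-fold lower, with a log2 change of -3.86 ± 0.18 (adjusted p = 1.6e-14) and -2.17 and -2.07 under the 2 rescalings. Its level was below that of DMSO at 6 h already, with a mean of 105 FPKM. Of 19 tested genes of the GIST lineage and surface list 17 fell and 0 rose, with a median of -1.82 against -1.49 over all genes, and 3 still fell after ratio rescaling.

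ANO1, the calcium-activated chloride channel DOG1 used to diagnose the tumour, had 32.6, 38.4 and 45.1 FPKM after 24 h of JQ1, against 285, 327 and 425 FPKM in DMSO, a log2 change of -3.12 ± 0.18 (adjusted p = 9.9e-13). HIC1, a transcriptional repressor, changed by -2.81 on the log2 scale, and PRKCQ, a protein kinase C used as a GIST marker, by -2.40. The lineage factor ETV1 had 24.3, 27.4 and 31.1 FPKM after 24 h of JQ1, against 82.5, 99.6 and 119.7 FPKM in DMSO, a log2 change of -1.82 ± 0.18 (adjusted p = 2.0e-09). HAND1 had 46.7 ± 5.73 FPKM in JQ1 24 h and 168 ± 36.5 FPKM in DMSO and fell by 1.81 on the log2 scale. FOXF1 fell by 1.70 on the log2 scale in FPKM, and its change after the rescalings, 0.0035 and 0.10, lay on either side of 0. After the 2 rescalings ETV1 was at -0.15 and -0.048 and HAND1 at -0.12 and -0.019, neither with a call, against -1.43 and -1.33 for ANO1, which kept its call.

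PDGFRA, the receptor mutated in some tumours without a KIT mutation, had 17.5 ± 2.43 FPKM in JQ1 24 h and 45.4 ± 9.19 FPKM in DMSO and fell by 1.32 on the log2 scale in FPKM, with 0.33 and 0.42 after rescaling. KITLG, the ligand of KIT, fell by 2.15 on the log2 scale. Of 24 other receptor tyrosine kinases 16 fell and 0 rose, with a median of -1.32, and after ratio rescaling 4 rose and 1 fell. The largest falls in that list were those of FGFR2 at -2.81 on the log2 scale, EPHB4 at -2.37, FLT4 at -2.19 and PDGFRB at -2.10.

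Genes that report on BET inhibition in other cells moved in both directions. Of 13 such markers 7 rose and 1 fell, with a median of 1.53, but 9 of the 13 are histone genes of the class above, so the count is not a separate observation. HEXIM1, which holds P-TEFb in its inactive complex and is often raised by BET inhibitors, had 14.6, 17.2 and 17.9 FPKM in the JQ1 24 h libraries, against 16.6, 19.6 and 25.9 FPKM in the DMSO libraries. Its groups overlapped, and it had no call, with a log2 change of -0.29 ± 0.20 (adjusted p = 0.17) but 1.31 and 1.42 after the 2 rescalings. ZMYND8, a reader of acetylated chromatin, had 5.74, 6.72 and 7.80 FPKM after 24 h of JQ1, against 52.2, 58.6 and 77.5 FPKM in DMSO, a log2 change of -3.03 ± 0.18 (adjusted p = 8.2e-13).

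The targets of the drug and the elongation machinery were lower with the bulk of genes. Of 22 BET proteins and elongation factors 18 fell and 0 rose, with a median of -1.49, equal to that of all genes to 2 decimals. BRD2, a BET protein, changed by -1.15 on the log2 scale in FPKM, with 0.53 and 0.63 after rescaling, and CDK9, the kinase of P-TEFb, by -1.71 in FPKM, with -0.061 and 0.036. Without DMSO replicate 3 BRD2 was at -0.98 on the log2 scale and lost its call. The largest falls were those of AFF1, a scaffold of the super elongation complex, at -2.58 on the log2 scale, of the negative elongation factor subunits NELFCD at -2.34 and NELFE at -1.81, and of HEXIM2 at -2.11. HEXIM1 was 1 of the 4 members without a call, and after ratio rescaling 2 members rose and 0 fell.

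RNA polymerase II, Mediator and general initiation factors gave the same picture, with 56 of 62 genes lower, 0 higher and a median of -1.64. After ratio rescaling 1 of the 62 rose and 0 fell. MED24 and MED22 of Mediator had the largest falls, -2.56 and -2.55 on the log2 scale, followed by MED27 at -2.39 and the initiation factor subunit GTF2F2 at -2.22. Of 58 histone-modifying enzymes 47 fell and 0 rose, with a median of -1.68, and 4 rose and 4 fell after ratio rescaling. The acetyltransferases KAT2B and KAT2A changed by -3.28 and -3.06 on the log2 scale, the arginine methyltransferase PRMT5 by -2.99 and the deacetylase HDAC7 by -2.76.

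ERK output genes are switched on downstream of KIT in this tumour. Of 17 listed genes 16 fell and 0 rose, with a median of -2.11, and 8 still fell after ratio rescaling. ETV4, an ETS factor induced by ERK, fell by 4.70 on the log2 scale. DUSP6, the phosphatase that switches ERK off, had 9.96, 13.3 and 14.7 FPKM in the JQ1 24 h libraries, against 181, 238 and 306 FPKM in the DMSO libraries. That was a 19.1-fold lower mean with no overlap and a log2 change of -4.14 ± 0.19 (adjusted p = 1.4e-14). SPRY4, a feedback inhibitor of receptor tyrosine kinase signalling, had 8.84, 10.9 and 12.9 FPKM after 24 h of JQ1, against 172, 202 and 261 FPKM in DMSO, a log2 change of -4.15 ± 0.17 (adjusted p = 2.6e-15).

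Immediate early genes were less uniform. Of 16 tested 9 fell and 0 rose, with a median of -1.14, and after ratio rescaling 3 rose and 0 fell. IER2 changed by -2.05 on the log2 scale, the zinc finger factor EGR1 by -2.03, SRF, the factor that drives many of these genes, by -1.84 and KLF2 by -1.73; none of these 4 kept a call after ratio rescaling.

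MYCN, a transcription factor of the MYC family, had 3.35, 3.37 and 4.27 FPKM in the JQ1 24 h libraries, against 107, 123 and 168 FPKM in the DMSO libraries. The JQ1 mean was 36.2-fold lower, with a log2 change of -4.82 ± 0.16 (adjusted p = 2.0e-16). MYC, a transcriptional driver of growth, had 0.481, 0.580 and 0.869 FPKM after 24 h of JQ1, against 3.76, 4.33 and 5.21 FPKM in DMSO, a log2 change of -1.72 ± 0.13 (adjusted p = 7.5e-11), and -0.60 and -0.59 after the rescalings. Of 12 genes of the MYC, MAX and MXD network 7 fell and 0 rose, and after ratio rescaling 4 rose and 1 fell. Among the members that fell in FPKM were MLX at -2.40 on the log2 scale and the shared partner MAX at -1.56 in FPKM, which was at 0.082 and 0.18 after rescaling.

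Most cell cycle genes fell, as did most tested genes. Of 24 cyclins, cyclin-dependent kinases and their inhibitors 20 fell, 83.3% beside 75.3% of all tested genes, and 1, CDKN1C, rose. Their median was -2.02 beside -1.49 over all tested genes, and after ratio rescaling 3 rose and 3 fell. CCND1, cyclin D1, had 3.47, 4.58 and 4.81 FPKM in the JQ1 24 h libraries, against 56.9, 72.8 and 91.9 FPKM in the DMSO libraries. Its groups lay far apart, with a log2 change of -3.81 ± 0.18 (adjusted p = 2.2e-14). The activating E2F factors E2F2 and E2F3 changed by -2.84 and -2.74 on the log2 scale, and cyclin E2, CCNE2, by -2.52. CDKN1A, the p21 inhibitor, had 2.03 ± 0.277 FPKM in JQ1 24 h and 2.39 ± 0.479 FPKM in DMSO and no call, at -0.15 ± 0.13 (adjusted p = 0.27), and 0.91 and 1.04 after the rescalings.

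DNA replication genes fell in 42 of 43 cases, with a median of -2.14, and 2 fell after ratio rescaling. GINS3 of the replicative helicase changed by -2.87 on the log2 scale, the polymerase epsilon subunit POLE2 by -2.72, the ribonucleotide reductase subunit RRM2 by -2.65 and the helicase subunit MCM5 by -2.64. TK1, at -0.98 on the log2 scale in FPKM and 0.73 and 0.83 after the rescalings, was the member without a call and was named after its value was seen. It passed, at -1.16 and -1.06 on the log2 scale, without DMSO replicate 1 or JQ1 24 h replicate 3. All 37 mitosis genes fell, with a median of -1.70, and after ratio rescaling 1 fell and 0 rose. The phosphatase CDC25A changed by -2.91 on the log2 scale, the kinase AURKA by -2.54, the ubiquitin-conjugating enzyme UBE2C by -2.52 and the proliferation marker MKI67 by -2.26.

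Ribosome biogenesis had the lowest median of any list with more than 1 tested gene. All 42 genes fell, with a median of -2.62, and 22 of the 42 still fell after ratio rescaling, where 6.47% of all tested genes did. RRS1, an assembly factor of the large subunit, had 2.21, 1.94 and 2.71 FPKM in the JQ1 24 h libraries, against 39.9, 50.2 and 61.95 FPKM in the DMSO libraries, a log2 change of -3.96 ± 0.18 (adjusted p = 1.1e-14). NOP2 and NOP16, nucleolar proteins of the same pathway, changed by -3.53 and -3.46 on the log2 scale, and the nucleolar helicase DDX21 by -3.44.

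Ribosomal protein genes form the ribosome itself. Of 85 tested 63 fell and 1 rose, with a median of -1.17, and after ratio rescaling 4 rose and 0 fell. The largest falls were in the paralogs RPL7L1 at -2.25 on the log2 scale, RPL39L at -1.83 and RPL22L1 at -1.82, and in RPS26 at -2.005. Whether reads were shared between these genes and near-identical pseudogenes was not tested. RPL3L, a muscle form of RPL3, was the 1 that rose, at 1.25 on the log2 scale, to a mean of 1.98 FPKM in JQ1 24 h, against 0.249 FPKM in DMSO; it was named after its value was seen.

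**Figure D4:**
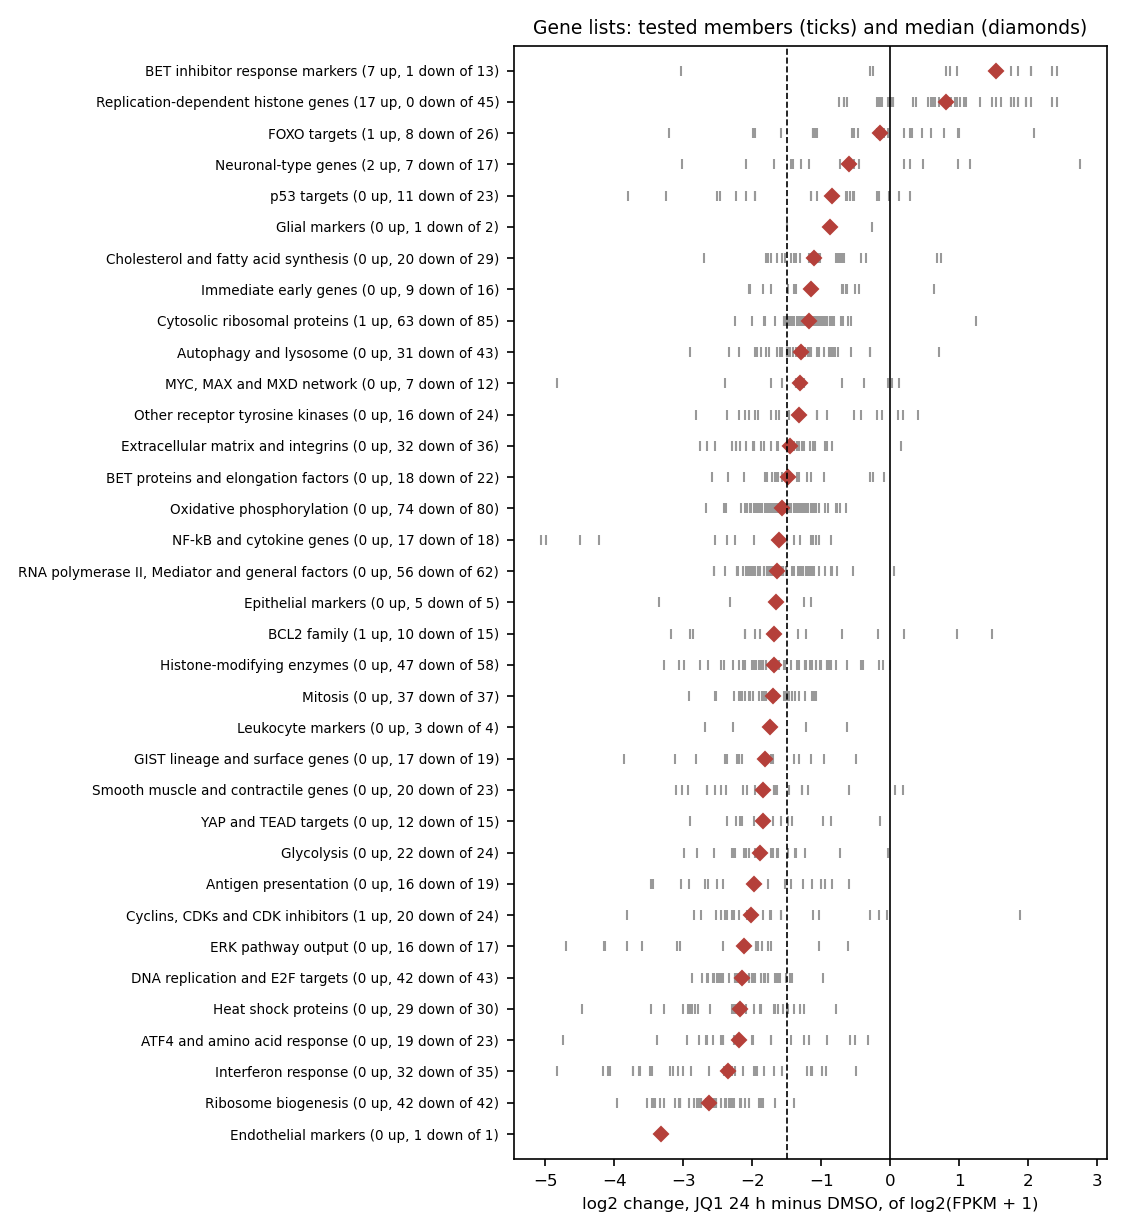
Log2 change, JQ1 24 h minus DMSO, of the tested members of 35 gene lists (ticks) and the median of each list (diamonds), ordered by the median, with the number of members that rose and fell. Medians run from 1.53 for BET inhibitor response markers to -2.62 for ribosome biogenesis among lists with more than 1 tested gene, and the dashed line marks the median of all tested genes, -1.49.

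In energy metabolism, 74 of 80 oxidative phosphorylation genes fell and 0 rose, with a median of -1.57, and after ratio rescaling 1 rose and 0 fell. ATP5G1, a subunit of the rotor ring of the ATP synthase, changed by -2.67 on the log2 scale, the complex I subunits NDUFS6 and NDUFA9 by -2.41 and -2.39, and COX7A1 by -2.37. Of 24 glycolysis genes 22 fell and 0 rose, with a median of -1.89, and after ratio rescaling 1 rose and 2 fell. HK2, a hexokinase, changed by -2.99 on the log2 scale, the enolase ENO1 by -2.80, the phosphofructokinase PFKP by -2.56 and GPI by -2.30. Cholesterol and fatty acid synthesis genes fell in 20 of 29 cases and rose in 0, with a median of -1.10, and after ratio rescaling 5 rose and 1, ELOVL6, a fatty acid elongase at -2.70 on the log2 scale in FPKM, fell. Without DMSO replicate 3, 12 of the 29 fell. FDPS of the mevalonate pathway fell by 1.80 on the log2 scale.

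BCL2 family genes, which set the threshold for apoptosis, moved in both directions. Of 15 tested genes 10 fell and 1 rose, with a median of -1.68, and after ratio rescaling 4 rose and 3 fell. Without DMSO replicate 2, DMSO replicate 3 or the unnumbered JQ1 24 h library 2 rose. BCL2L1, which encodes the survival protein BCL-XL, had 10.2, 12.4 and 14.5 FPKM in the JQ1 24 h libraries, against 77.5, 93.6 and 120.1 FPKM in the DMSO libraries, a log2 change of -2.86 ± 0.19 (adjusted p = 9.0e-12). BID, a death-promoting member, changed by -3.17 on the log2 scale, BCL2 by -2.90 and BCL2L2 by -2.11. BCL2L11, the death-promoting BIM, had 5.26 ± 0.702 FPKM in JQ1 24 h and 4.51 ± 1.11 FPKM in DMSO and no call, at 0.20 ± 0.17 (adjusted p = 0.28). BMF, a death-promoting member known to bind the dynein light chain, was the 1 that rose, with 15.7, 17.6 and 19.7 FPKM after 24 h of JQ1, against 4.42, 6.17 and 6.58 FPKM in DMSO, a log2 change of 1.48 ± 0.18 (adjusted p = 6.5e-08).

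Of 23 p53 targets 11 fell and 0 rose, with a median of -0.85, and after ratio rescaling 6 rose and 3 fell. The nuclease AEN changed by -3.80 on the log2 scale, the death receptor FAS by -3.25, the secreted factor GDF15 by -2.51 and MDM2, the ligase of p53, by -2.46. FOXO targets stood highest after the histone and BET marker lists, with 8 of 26 lower, 1 higher and a median of -0.14, and 15 of 26 rose after ratio rescaling, where 5.25% of all tested genes did. Without DMSO replicate 2, DMSO replicate 3 or the unnumbered JQ1 24 h library 3 rose, without JQ1 24 h replicate 2, 2 rose, and without DMSO replicate 3, 4 fell. KLHL24 was the 1 that rose with all 6 libraries in the test; the death ligand TNFSF10 changed by -3.21 on the log2 scale, CITED2 by -1.99 and the receptor ERBB3 by -1.96.

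Stress response genes were mostly lower. Of 23 genes of the ATF4 and amino acid response 19 fell and 0 rose, with a median of -2.19, and after ratio rescaling 5 fell and 1 rose. Next to STC2, the pseudokinase TRIB3 changed by -3.38 on the log2 scale, the amino acid transporter SLC7A5 by -2.94 and PSAT1 of serine synthesis by -2.77. Of 30 heat shock genes 29 fell and 0 rose, with a median of -2.18, and 9 fell after ratio rescaling. HSPA8, the constitutive cytosolic HSP70, had 311, 358 and 398 FPKM in the JQ1 24 h libraries, against 3197, 4009.6 and 4743 FPKM in the DMSO libraries, a log2 change of -3.47 ± 0.20 (adjusted p = 5.1e-13). The small heat shock protein gene HSPB8 changed by -4.46 on the log2 scale, the cochaperone HSPH1 by -3.28 and the mitochondrial cochaperonin HSPE1 by -3.01. Autophagy and lysosome genes fell in 31 of 43 cases and rose in 0, so that 72.1% fell beside 75.3% of all tested genes. Their median was -1.29 beside -1.49 over all tested genes, and after ratio rescaling 3 rose and 1 fell. CTSL1, for cathepsin L, was at -2.90 on the log2 scale, and the lysosomal transcription factor TFE3 fell by 2.34.

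Interferon response genes were the second lowest list of more than 1 tested gene. Of 35 tested 32 fell and 0 rose, with a median of -2.34, and 17 fell after ratio rescaling. RTP4, an interferon-induced receptor transporter, had 0.732, 0.788 and 1.31 FPKM in the JQ1 24 h libraries, against 44.5, 56.7 and 61.3 FPKM in the DMSO libraries. The JQ1 mean was 57.3-fold lower, with a log2 change of -4.83 ± 0.16 (adjusted p = 1.5e-16). XAF1 changed by -4.16 on the log2 scale, the nucleotide kinase CMPK2 by -4.08 and IFIT3 by -4.06.

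Antigen presentation genes fell in 16 of 19 cases and rose in 0, with a median of -1.97, and after ratio rescaling 8 fell and 1 rose. The peptide transporter subunits TAP1 and TAP2 changed by -3.45 and -3.44 on the log2 scale, the trimming peptidase ERAP2 by -3.46 and the immunoproteasome subunit PSMB8 by -3.03. Of 18 NF-kB and cytokine genes 17 fell and 0 rose, with a median of -1.62, and after ratio rescaling 0 rose and 4 fell. Next to XCL1 and XCL2, the chemokine CCL2 changed by -4.49 on the log2 scale and CXCL10 by -4.22.

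Of 23 smooth muscle and contractile genes 20 fell and 0 rose, with a median of -1.84. Caldesmon, CALD1, changed by -3.11 on the log2 scale, the calponin CNN2 by -3.02, the tropomyosin TPM4 by -2.93 and smooth muscle actin, ACTA2, by -2.66. YAP and TEAD targets fell in 12 of 15 cases and rose in 0, with a median of -1.85, with TEAD4 at -2.90 on the log2 scale, TEAD2 at -2.37, the coactivator WWTR1 at -2.24 and the secreted target CTGF at -2.17. Extracellular matrix and integrin genes fell in 32 of 36 cases and rose in 0, with a median of -1.45. TIMP1, an inhibitor of metalloproteinases, changed by -2.75 on the log2 scale, elastin, ELN, by -2.66, ITGA6 by -2.54 and TIMP3 by -2.29. After ratio rescaling 3 contractile genes, 1 YAP and TEAD target and 1 matrix gene still fell, and 1 contractile gene and 1 matrix gene rose.

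Neuronal-type genes were mixed. Of 17 tested 7 fell and 2, DPYSL3 and the G-protein subunit GNG8, rose, GNG8 being named after its value was seen, with a median of -0.59, and after ratio rescaling 6 rose and 1 fell. The libraries of the groups overlapped for GNG8, and without DMSO replicate 1, 1 gene of the list rose. KIF5C, a neuronal kinesin, changed by -3.01 on the log2 scale, STMN3 by -2.09 and NLGN1, a synaptic adhesion molecule, by -1.68. Most tested markers of other cell types fell, as did 75.3% of all tested genes. All 5 epithelial genes fell, among them KRT18 at -3.36 on the log2 scale and MUC1 at -2.32. Of 4 leukocyte genes 3 fell, among them CORO1A at -2.68 and CD68 at -2.28. ENG, the single endothelial gene, fell as well, at -3.33, and so did 1 of 2 glial genes. The summed levels were 47.4 to 63.6 FPKM in JQ1 24 h and 425 to 676 FPKM in DMSO for the epithelial list, 8.54 to 12.2 and 53.4 to 76.7 FPKM for the leukocyte list, 61.2 to 89.4 and 588 to 963 FPKM for the endothelial list, and 1.22 to 1.41 and 3.91 to 4.31 FPKM for the glial list. Their part in the results was not tested.

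The late and early responses differed in a part of the genes. Against JQ1 for 6 h, 65 genes were higher at 24 h and 1813 lower, 0.509% and 14.2% of the tested genes, with a median log2 difference of -0.45. The comparisons of 24 h and of 6 h with DMSO share the DMSO libraries, while 24 h minus 6 h uses none of them. BMF, CTGF and TUBB3 were the 3 genes with calls of opposite direction against DMSO at the 2 times, and each also passed the test of 24 h against 6 h.

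BMF had 15.7, 17.6 and 19.7 FPKM after 24 h of JQ1, against 0.921, 0.928 and 1.07 FPKM after 6 h. It lay below its DMSO mean of 5.72 FPKM at 6 h and above it at 24 h, and the log2 difference of 24 h minus 6 h was 3.24 ± 0.18 (adjusted p = 2.7e-11). DDX17, an RNA helicase, was low at 6 h, with 52.8, 61.1 and 67.05 FPKM after 24 h of JQ1, against 13.6, 12.6 and 14.1 FPKM after 6 h and a difference of 2.08 ± 0.20, and its DMSO mean was 54.3 FPKM, near that at 24 h. YPEL3, a small zinc-binding protein gene, behaved alike, with means of 26.01 FPKM at 24 h and 7.20 FPKM at 6 h beside 26.1 FPKM in DMSO and a log2 difference of 24 h minus 6 h of 1.72 ± 0.19. REEP1, which shapes the endoplasmic reticulum, was higher at 24 h by 1.76 on the log2 scale, LYRM9 by 1.62 and ABTB1 by 1.61.

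CTGF, a secreted matricellular protein, had 3.004, 3.45 and 4.22 FPKM after 24 h of JQ1, against 86.1, 89.7 and 95.9 FPKM after 6 h. Its DMSO mean of 19.8 FPKM lay between the 2 times, and the difference was -4.34 ± 0.17 (adjusted p = 5.4e-14). TUBB3, a neuronal beta tubulin, had 58.2, 70.2 and 77.7 FPKM after 24 h of JQ1, against 358, 351 and 404 FPKM after 6 h, beside 187 FPKM in DMSO, a difference of -2.42 ± 0.21 (adjusted p = 9.2e-09); against DMSO it changed by -1.41 at 24 h in FPKM, with 0.28 and 0.38 after the rescalings, and by 1.01 at 6 h. RBM14, a nuclear RNA-binding coactivator, stood at its DMSO level at 6 h and fell late, with 2.49, 3.21 and 3.40 FPKM after 24 h of JQ1, against 69.8, 66.4 and 75.1 FPKM after 6 h and a difference of -4.15 ± 0.16 (adjusted p = 5.4e-14).

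The log2 difference of 24 h minus 6 h was -3.28 for DUSP6, -3.20 for HSPA8, -3.06 for the nucleoside diphosphate kinase NME1 and -3.06 for RASL11A, a Ras-like GTPase. Of the lists, 30 of 42 ribosome biogenesis genes, 19 of 30 heat shock genes, 19 of 35 interferon genes and 14 of 23 ATF4 genes were lower at 24 h than at 6 h, where 14.2% of all tested genes were. Of the 45 histone genes 1 was higher at 24 h and 1 lower, with a median difference of -0.028. After ratio rescaling the counts over all genes were 340 higher and 441 lower, and after total rescaling 1166 higher and 163 lower, so how many genes fell between the times rests on the scale, and the directions of the 13 genes named in these paragraphs did not change.

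**Figure D5:**
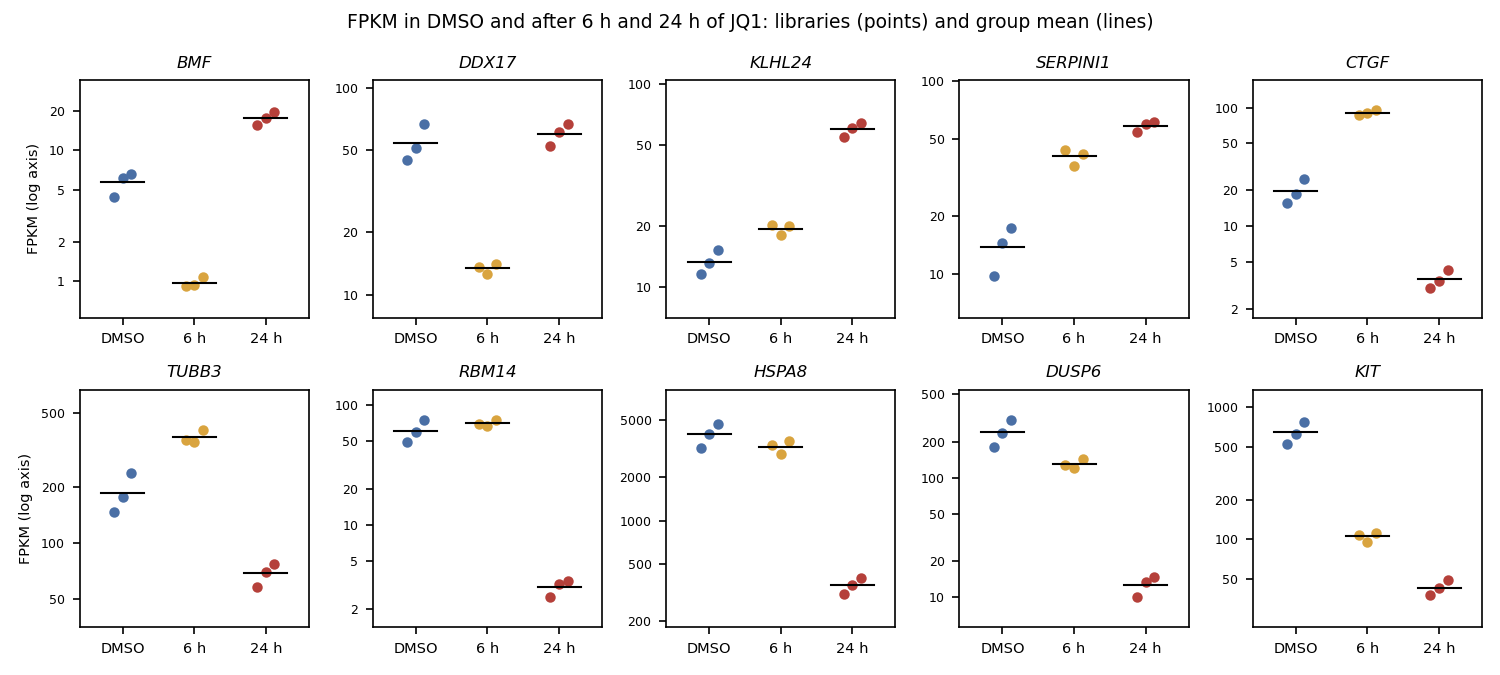
FPKM of 10 genes in DMSO and after 6 h and 24 h of JQ1, on a log axis; points are libraries and lines are means of 3. BMF and DDX17 are low at 6 h and higher at 24 h, CTGF and TUBB3 are high at 6 h and low at 24 h, RBM14 and HSPA8 are low at 24 h, and KIT is low at both times.

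Set against imatinib for 24 h, the median log2 difference was 0.040, and 459 genes were higher in JQ1 24 h and 623 lower, 3.59% and 4.88% of the tested genes. After ratio rescaling 456 were higher and 778 lower, and after total rescaling 240 and 1584. The summed FPKM was 575762 to 686118 in the JQ1 24 h libraries and 453262 to 518817 in the imatinib 24 h libraries. Mitosis genes were higher in 27 of 37 cases with a median difference of 1.21, replication genes in 20 of 43 cases with a median of 0.95, and histone genes in 27 of 45 cases with a median of 1.23; 0 members of these lists were lower. Of 35 interferon genes 10 were lower in JQ1 24 h than in imatinib 24 h and 0 higher.

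ETV5, an ETS factor induced by ERK, had 24.5, 28.3 and 33.9 FPKM in JQ1 24 h, against 0.575, 0.556 and 0.516 FPKM in imatinib 24 h. The difference was 4.26 ± 0.18 (adjusted p = 3.0e-13). DUSP6 differed in the same direction, with 9.96, 13.3 and 14.7 FPKM in JQ1 24 h, against 1.01, 0.9996 and 1.05 FPKM in imatinib 24 h and a difference of 2.74 ± 0.19 (adjusted p = 1.7e-10). DHRS2, a short-chain reductase, was higher by 4.25 on the log2 scale, DPYSL3 by 3.89, TNFRSF12A, the receptor of TWEAK, by 3.15 and TUBB3 by 2.72. KIT was lower, with 37.5, 42.4 and 49.3 FPKM in JQ1 24 h, against 136, 155 and 142 FPKM in imatinib 24 h, a difference of -1.73 ± 0.18 (adjusted p = 6.5e-08).

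The genes lower in JQ1 24 h than in imatinib 24 h were led by LINC00159, at the floor in JQ1 24 h and at 26.8 FPKM in imatinib 24 h. RTP4 was lower by 3.58 on the log2 scale. CD24, a surface glycoprotein, had 1.67, 1.81 and 2.82 FPKM in JQ1 24 h, against 30.4, 36.4 and 33.97 FPKM in imatinib 24 h, a difference of -3.50 ± 0.16 (adjusted p = 6.4e-13), and myoglobin, MB, had 0.178, 0.125 and 0.570 FPKM in JQ1 24 h, against 9.91, 10.9 and 11.2 FPKM in imatinib 24 h, a difference of -3.19 ± 0.17 (adjusted p = 3.8e-12). The log2 difference was -3.25 for GPR56, an adhesion receptor, and -3.18 for LEFTY2, an inhibitor of Nodal. The DMSO means of CD24 and MB were 4.95 and 0.762 FPKM, so these 2 genes were low in both JQ1 24 h and DMSO.

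Read depth is not known from these values, and precision rests on 3 libraries a group of 1 line. Direction against DMSO rests on the deposited scale, on which the ERCC spike-ins are level across libraries; no source used here gives the step that made it so.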

How the data were processed

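RNA-seq of 18 GIST-T1 libraries, 3 in each of 6 groups, was read from 1 table in which the authors deposited FPKM values per gene. STAR, Cufflinks and hg19 are named in the submitters' processing notes, without versions or settings. The file's label calls the values normalized; no source used here gives the step, but 24 abundant ERCC spike-ins had the same level in every library, with median log2 deviations of -0.019 to 0.038. Read counts, and so depth, are not known.

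Columns were assigned by treatment in the sample titles. The titles number the JQ1 24 h libraries differently from the columns, so 1 JQ1 24 h column was used as an unnumbered library; values of JQ1 24 h are given in the order unnumbered library, replicate 2, replicate 3. Of 23713 rows, 92 spike-in rows were left out of the tests, and 28 rows carry dates in place of gene names and stayed unnamed, 20 of them tested.

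With limma 3.58.1 in R 4.3.3, log2(FPKM + 1) was fitted over all 6 groups (12 residual degrees of freedom, variance trend). Genes reaching 1 FPKM in 3 or more libraries entered the test. A call required a Benjamini-Hochberg adjusted p under 0.05 over all 12771 tested genes and a log2 change of at least 1. The fit was tested on simulated data. The members and the 35 gene lists were chosen with earlier results of these data known. Named genes were those of largest change whose higher group averaged 5 FPKM or more and whose groups did not overlap, the 4 of largest change in each list, the most abundant genes and fixed study genes; others are said to have been named after their values were seen. Alternatives changed the pseudocount, filter, threshold, scale, weights, variance trend, groups fitted, replicate block or library set. Promoter sequences are RefSeq's on GRCh38.p14 and were used for sequence only. Figures were drawn with matplotlib 3.10.9. A few named genes are not reported here.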

Additional observations from a re-analysis of the deposited data

Results flagged for a closer look

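Each gene here differed between 24 h and 6 h of JQ1 in the limma test of the difference itself, with an adjusted p under 0.05 and a log2 difference of at least 1, 24 h minus 6 h; the 6 largest in each direction and TUBB3 are given, the last for its calls of opposite direction against DMSO. The difference was 3.24 for BMF, 2.08 for DDX17, 1.76 for REEP1, 1.72 for YPEL3, 1.62 for LYRM9 and 1.61 for ABTB1, all higher at 24 h in 3 of 3 libraries. It was -4.34 for CTGF, -4.15 for RBM14, -3.28 for DUSP6, -3.20 for HSPA8, -3.06 for NME1, -3.06 for RASL11A and -2.42 for TUBB3, all lower at 24 h in 3 of 3 libraries. A lack of overlap between the 2 times was a condition for the 6 largest in each direction. The direction of each gene was the same after ratio and after total rescaling.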

How the results depend on the processing

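Most counts depended on the scale of the values, and the cause was not tested. Against DMSO, where 51 rose and 9621 fell, 670 rose and 826 fell after ratio rescaling, 906 and 724 after total rescaling, and 567 and 1055 after total rescaling without the MIR1244 rows. Against JQ1 6 h, with 65 higher and 1813 lower at 24 h, these counts were 340 and 441, 1166 and 163, and 518 and 329. Against imatinib 24 h, with 459 higher and 623 lower, they were 456 and 778, 240 and 1584, and 319 and 1124. Pseudocounts of 0.1 and 0.01 gave 96 and 100 rising genes against DMSO, 187 and 210 against JQ1 6 h and 727 and 775 against imatinib 24 h, where 1201 and 1304 were lower. With no fold threshold 196 rose against DMSO, 664 were higher and 7050 lower than at 6 h, and 2317 were higher and 2421 lower than in imatinib 24 h. With a log2 threshold of 2 the counts were 17 and 2797, 6 and 122, and 52 and 71. Array weights gave 77 rising genes against DMSO, and a mean of at least 5 FPKM left 360 lower than in imatinib 24 h. Leaving out each library gave 43 to 58 rising and 8933 to 10124 falling genes against DMSO, 51 to 96 and 1450 to 2289 against JQ1 6 h, and 365 to 579 and 551 to 761 against imatinib 24 h. The labels do not say whether the numbers 2 and 3 shared by JQ1 24 h and DMSO mark matched libraries. Deviations of same-numbered libraries correlated at 0.062 and -0.081, and those of differently numbered ones at 0.18 and -0.052. Such correlations across genes leave out a shift of a whole library, so they cannot decide on matching. A replicate block over the numbers gave 52 rising and 9569 falling genes against DMSO, 74 and 1746 against JQ1 6 h, and 477 and 618 against imatinib 24 h. Median log2 changes turned sign under total rescaling, to 0.074 against DMSO, 0.34 against JQ1 6 h and -0.29 against imatinib 24 h, and without MIR1244 to 0.10 against JQ1 6 h and -0.14 against imatinib 24 h; without JQ1 24 h replicate 3 the last was -0.035. Log2 changes against DMSO that turned sign were, after ratio rescaling, BRD2 0.53, CDKN1A 0.91, FOXF1 0.0035, GAPDH 0.33, H19 0.11, HEXIM1 1.31, HIST1H4J 0.78, MAX 0.082, PDGFRA 0.33, RPL41 0.36, RPS12 0.67, SNHG5 1.12, TK1 0.73, TMSB4X 0.53 and TUBB3 0.28, after total rescaling BRD2 0.63, CDK9 0.036, CDKN1A 1.04, FOXF1 0.10, GAPDH 0.43, H19 0.21, HEXIM1 1.42, HIST1H4J 0.89, MAX 0.18, PDGFRA 0.42, RPL41 0.46, RPS12 0.77, SNHG5 1.22, TK1 0.83, TMSB4X 0.63 and TUBB3 0.38, and after total rescaling without MIR1244 BRD2 0.42, CDKN1A 0.89, GAPDH 0.22, HEXIM1 1.21, HIST1H4J 0.70, PDGFRA 0.22, RPL41 0.24, RPS12 0.56, SNHG5 1.01, TK1 0.61, TMSB4X 0.41 and TUBB3 0.17. Of the 163 log2 changes printed against DMSO, 90 kept direction and call after ratio rescaling, 56 lost the call, 2 gained one and 15 turned. The 13 printed against JQ1 6 h and the 12 against imatinib 24 h kept both under every alternative that could be computed for them. Depth is not known, and 3 libraries of 1 line limit the precision.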

Other observations

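The families in this paragraph were taken by the start of the gene symbol and named after their values were seen, so their counts are a description. Over all tested genes 75.3% fell and 0.399% rose, with a median log2 change of -1.49. Of 25 tested HOX genes, which encode the homeodomain factors that set position along the body, 21 fell in JQ1 24 h and 0 rose, with a median log2 change of -1.42. HOXD13, of the distal end of its cluster, had 1.72, 2.06 and 2.38 FPKM in the JQ1 24 h libraries, against 19.03, 23.4 and 28.3 FPKM in the DMSO libraries, a log2 change of -2.999 ± 0.15 (adjusted p = 9.9e-14), and it was the 1 HOX gene that still fell after ratio rescaling. HOXC10 had 10.6, 12.95 and 14.97 FPKM after 24 h of JQ1, against 51.3, 68.8 and 86.2 FPKM in DMSO and a log2 change of -2.32 ± 0.21. Of 13 small nucleolar RNA host genes 11 fell and 0 rose, with a median log2 change of -1.83, and after ratio rescaling 1 rose and 1 fell. SNHG15 had 9.50, 10.3 and 12.9 FPKM after 24 h of JQ1, against 92.3, 117 and 122 FPKM in DMSO, a log2 change of -3.23 ± 0.16, while SNHG5 had 676 ± 59.1 FPKM in JQ1 24 h and 1029.8 ± 239.5 FPKM in DMSO and no call, at -0.58 ± 0.19 in FPKM and 1.12 and 1.22 after the ratio and total rescalings. Of 25 Kelch-like genes KLHL24 and KLHL38 rose, 17 fell, and the median log2 change was -1.29; after ratio rescaling the same 2 genes rose and 0 fell. Of 395 tested genes whose symbol starts with ZNF and a number, 272 fell and 0 rose, with a median of -1.28, and after ratio rescaling 4 rose and 5 fell.

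The rows MIR1244-2 and MIR1244-3, named for copies of 1 microRNA gene, together held 26.5% to 31.5% of the summed FPKM in JQ1 24 h libraries and 33.8% to 41.4% in DMSO libraries. Totals of these libraries therefore rest in part on 2 rows. Without them the summed FPKM was 3.05-fold lower in JQ1 24 h than in DMSO.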
